A study of Arabidopsis thaliana with 8 samples.

Results

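The 5 class III homeodomain leucine zipper (HD-ZIP III) genes of Arabidopsis thaliana and 3 regulators of procambium, cambium and phloem were followed across 3 genotypes. The genes were picked by their locus identifiers: ATHB8 (AT4G32880), PHB (AT2G34710), PHV (AT1G30490), REV (AT5G60690), CNA (AT1G52150, also called ATHB15), PXY (AT5G61480), WOX4 (AT1G46480) and APL (AT1G79430). All 8 were among the 18855 genes listed for the series. No further filter on low values was applied, and every listed gene already had at least 1 in at least 2 samples.

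HD-ZIP III proteins are transcription factors that set the upper side of leaves, pattern the shoot meristem and direct vascular development. Their transcripts are cut under the direction of the microRNAs miR165 and miR166, and the little zipper proteins hold HD-ZIP III proteins in inactive dimers. In the cambium, phloem-derived peptides of the CLE41 and CLE44 genes bind the receptor kinase PXY, which keeps the dividing cells of the vascular stem cell layer in place and acts through WOX4, while APL directs phloem identity.

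The study profiled RNA from whole seedlings 12 days old, grown on MS medium without treatment, in 3 samples of SPCHΔ49 basl-2, 3 samples of SPCHΔ49 and 2 samples of wild type (WT). SPCHΔ49 is a SPEECHLESS (SPCH) protein that lacks a stretch through which MAP kinases mark it for breakdown; SPCH is the transcription factor that starts the stomatal lineage. The labels place it behind the 35S promoter, which is active in most cell types. In which cells it was expressed was not measured here. The BASL transcript level need not test the basl-2 label, since a mutant allele can still be transcribed. The basl-2 plants carry in addition a mutant allele of BASL, a polarity protein of asymmetric stomatal divisions; basl-2 without SPCHΔ49 was not analysed here. Nothing states whether the samples of a genotype were grown or pooled separately, so p-values measure the spread between these samples only.

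The values are deposited signal on a TPM scale, that is, per transcript length and per library, so that genes can be compared within a sample. Library totals ran between 852202 and 1075380 and library medians between 12.3 and 13.6. SPCH signal was 397, 338 and 487 in SPCHΔ49 basl-2, 2628, 2357 and 2488 in SPCHΔ49, and 8.20 and 5.65 in WT. BASL signal was 2.095, 3.23 and 2.90 in SPCHΔ49 basl-2, 59.7, 58.1 and 35.3 in SPCHΔ49, and 3.34 and 3.52 in WT. Total SPCH signal, in which transgene and native transcripts are not separated, therefore differed between the 2 overexpressors. An effect of basl-2 cannot be told apart from that difference. Although every sample is labelled whole seedling, the summed signal of 12 listed root markers was 22.4 to 30.8 in SPCHΔ49 basl-2 and 11.1 to 28.1 in SPCHΔ49, against 238 to 249 in WT. The root hair expansin gene EXPA18 and the Casparian strip gene CASP5 were listed at 0 in all 6 overexpressor libraries. The 8 genes are also active in the vascular tissue of roots, and the part of the low root signal in the results on them was not tested.

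The sequences through which miR165 and miR166 recognise these transcripts divide the 8 genes into 5 with a site and 3 without one. They are printed because they are what the HD-ZIP III genes share beyond their protein class. Both mature microRNAs are given in RefSeq (assembly TAIR10.1), miR165 at 2 of 2 loci and miR166 at 7 of 7 loci, with the seed (bases 2 to 8) in capitals.
miR165: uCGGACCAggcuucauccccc
miR166: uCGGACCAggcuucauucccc
They share the seed and differ by C17U, counted from the 5′ end of miR165. A search of the RefSeq transcripts of the 8 genes found 3 distinct 21-base sites in the 5 HD-ZIP III genes, printed 5′ to 3′ with the bases opposite the seed in capitals.
ATHB8 and REV: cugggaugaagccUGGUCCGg
PHB and PHV: uugggaugaagccUGGUCCGg
CNA: cuggaaugaagccUGGUCCGg
Counted from the 5′ end of the ATHB8 and REV site, the PHB and PHV site differs by C1U and the CNA site by G5A. All 3 sites pair with the whole seed, and a G opposite a U was counted as a mismatch. Mismatches over the 21 bases numbered 3 to miR165 and 4 to miR166 in ATHB8, PHB, PHV and REV, and 4 to miR165 and 3 to miR166 in CNA. In PXY, WOX4 and APL the closest 21 bases had 7 to 9 mismatches.

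Each site lies in coding sequence and spans the junction of neighbouring exons, 11 bases in the upstream exon and 10 in the downstream one. In TAIR10.1 the ATHB8 site is at chr4:15866964-15866974 in exon 5 and chr4:15866872-15866881 in exon 6, on the minus strand. The PHB site is at chr2:14642656-14642666 and chr2:14642530-14642539, minus strand, in exons 4 and 5. The PHV site is at chr1:10799435-10799445 and chr1:10799330-10799339, minus strand, in exons 4 and 5. The REV site is at chr5:24398787-24398797 and chr5:24398889-24398898, plus strand, in exons 4 and 5. The CNA site is at chr1:19413075-19413085 and chr1:19412976-19412985, minus strand, in exons 4 and 5. ATHB8 and REV thus carry the same 21 bases, as do PHB and PHV. Levels of the microRNAs themselves were not analysed here.

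The comparison of each overexpressor with WT asks how the 8 genes stand in seedlings that the study describes as having extra stomatal lineage cells, whose number was not measured here. Transcripts of ATHB8, PXY and WOX4 were lower than WT in both overexpressors, and REV was lower in SPCHΔ49 basl-2. No call was made for PHB, PHV, CNA or APL in any comparison. All genes were fitted with limma on log2(signal + 1) with Benjamini-Hochberg adjustment. On that basis 4 of the 8 passed an adjusted p of 0.05 in SPCHΔ49 basl-2 against WT, where 34.3% of all genes passed. In SPCHΔ49 against WT 3 of the 8 passed, where 27.2% of all genes passed. Both counts are read against these backgrounds, which they exceed by little. All calls among the 8 genes were lower, a direction taken by 21.6% of all genes in SPCHΔ49 basl-2 against WT and by 17.3% in SPCHΔ49 against WT, while 12.6% and 9.9% of all genes were called higher there. The median log2 fold change of the 8 genes was −0.54 in SPCHΔ49 basl-2 against WT and −0.36 in SPCHΔ49 against WT, against −0.06 and −0.01 over all genes. In this bulk tissue, fewer cells of a type and less RNA per cell cannot be told apart.

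**Figure D1:**
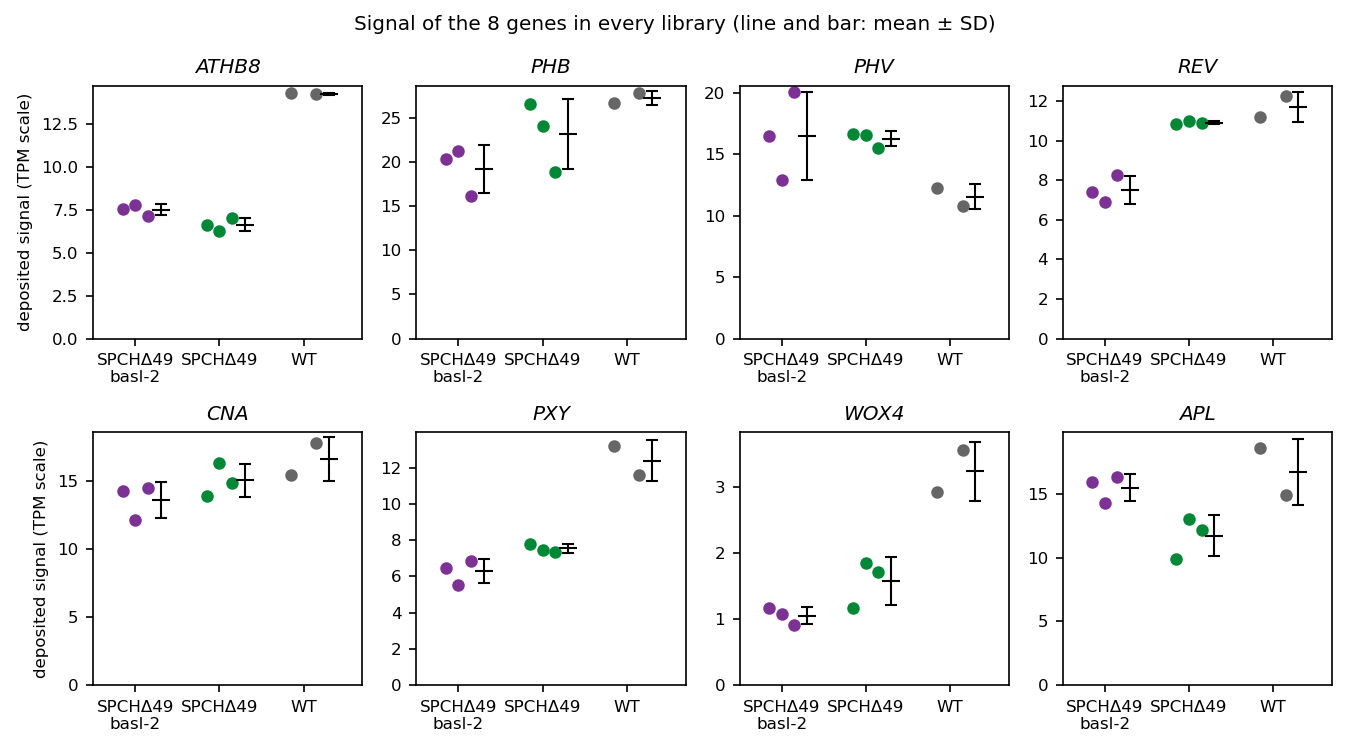
Deposited signal (TPM scale, vertical axes from 0) of the 8 genes in every library, by genotype; coloured points are libraries, and the black line and bar are the mean and SD of 3, 3 and 2 libraries. ATHB8, PXY and WOX4 sit below both WT libraries in all 6 overexpressor libraries, REV is lowest in SPCHΔ49 basl-2, and PHV lies above both WT libraries in all 6.

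ATHB8, a transcription factor of procambial cells and early xylem, had the lowest adjusted p of the 8 in both comparisons with WT. Its signal was 7.53, 7.77 and 7.14 in SPCHΔ49 basl-2, 6.62, 6.27 and 7.001 in SPCHΔ49, and 14.3 and 14.2 in WT. All 6 overexpressor libraries lay far below both WT libraries, and the spread within each genotype was small. The mean was 52.6% of WT in SPCHΔ49 basl-2 (log2 fold change −0.85 ± 0.10 SE, limma adjusted p = 0.00110) and 46.6% of WT in SPCHΔ49 (−0.999 ± 0.101, adjusted p = 0.000504). Both calls held under all 16 alternative settings, with log2 fold changes between −0.92 and −0.77 in SPCHΔ49 basl-2 and between −1.09 and −0.87 in SPCHΔ49. Between the overexpressors the difference was 0.15 (95% interval −0.06 to 0.37, adjusted p = 0.373).

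REV, which acts in axillary meristems, leaf polarity and the fibres of the stem, carries the same microRNA site as ATHB8. The part of that site in these results was not tested. REV was called lower than WT in SPCHΔ49 basl-2 alone. Its signal was 7.38, 6.90 and 8.27 in SPCHΔ49 basl-2, 10.9, 11.0 and 10.9 in SPCHΔ49, and 11.2 and 12.3 in WT. SPCHΔ49 basl-2 lay below the other 5 libraries, and the SPCHΔ49 libraries lay just under WT. The fall in SPCHΔ49 basl-2 was to 64.2% of WT (log2 fold change −0.58 ± 0.11, limma adjusted p = 0.00743), and without WT replicate 2 its adjusted p was 0.0637. In SPCHΔ49 the difference from WT was −0.09 (95% interval −0.35 to 0.16, adjusted p = 0.563).

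PHB and PHV, close relatives that set the upper side of leaves and share a microRNA site, had differences from WT of opposite sign. None of these differences passed the test as reported. PHB signal was 20.3, 21.2 and 16.1 in SPCHΔ49 basl-2, 26.6, 24.0 and 18.9 in SPCHΔ49, and 26.7 and 27.8 in WT. Every overexpressor library was below WT, the third of each genotype most, but the spread was wide, with log2 differences of −0.49 ± 0.17 in SPCHΔ49 basl-2 (limma adjusted p = 0.0612) and −0.24 ± 0.17 in SPCHΔ49 (adjusted p = 0.341). The first of these passed without SPCHΔ49 replicate 3, at an adjusted p of 0.0366. PHV signal was 16.5, 12.9 and 20.1 in SPCHΔ49 basl-2, 16.6, 16.6 and 15.5 in SPCHΔ49, and 12.3 and 10.8 in WT.
All 6 overexpressor libraries were above both WT libraries. The log2 difference was 0.46 ± 0.17 in both overexpressors, with limma adjusted p of 0.0767 in SPCHΔ49 basl-2 and 0.0890 in SPCHΔ49. It passed in SPCHΔ49 basl-2 without replicate 2 of that genotype (adjusted p = 0.0180). In SPCHΔ49 it passed when SPCHΔ49 basl-2 replicate 2 (0.0318) or replicate 3 (0.0401) was left out. PHV and PHB share sequence: 4.72% of the 31-base words of PHV and 2.12% of those of PHB occur in another gene, each other included, while the other 6 genes share none.

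CNA, which limits meristem size and acts in vascular development, had signal of 14.3, 12.1 and 14.5 in SPCHΔ49 basl-2, 13.8, 16.3 and 14.9 in SPCHΔ49, and 15.4 and 17.7 in WT. The SPCHΔ49 libraries overlapped WT, and the SPCHΔ49 basl-2 libraries were all below it. The log2 difference was −0.27 in SPCHΔ49 basl-2 (95% interval −0.57 to 0.03, limma adjusted p = 0.139) and −0.14 in SPCHΔ49 (−0.43 to 0.16, adjusted p = 0.460).

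The summed signal of the 5 HD-ZIP III genes was 64.3 ± 2.98 in SPCHΔ49 basl-2 (SD, n = 3), 72.0 ± 4.14 in SPCHΔ49 (n = 3) and 81.3 ± 2.11 in WT (n = 2), given without a test. Its make-up, which no rescaling of a library can change, differed as well. ATHB8 made up 11.7% ± 1.001 of it in SPCHΔ49 basl-2 and 9.25% ± 1.04 in SPCHΔ49, against 17.5% ± 0.515 in WT. PHV made up 25.5% ± 4.61 in SPCHΔ49 basl-2 and 22.6% ± 0.467 in SPCHΔ49, against 14.2% ± 1.63 in WT. The ATHB8 share was lower, and the PHV share higher, in each of the 6 overexpressor libraries than in either WT library. REV made up 11.7% ± 0.734 in SPCHΔ49 basl-2, 15.2% ± 0.896 in SPCHΔ49 and 14.4% ± 0.563 in WT. CNA made up 21.1% ± 1.10, 20.9% ± 2.01 and 20.4% ± 1.48 in the same order, and PHB at 30.0% ± 5.26, 32.1% ± 3.79 and 33.5% ± 0.103. CNA, the closest relative of ATHB8, had 1.56 to 2.02 times the ATHB8 signal in SPCHΔ49 basl-2 and 2.09 to 2.604 times in SPCHΔ49, against 1.08 to 1.25 times in WT. PHV over PHB was 0.610 to 1.25 in SPCHΔ49 basl-2 and 0.625 to 0.823 in SPCHΔ49, against 0.390 to 0.460 in WT.

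**Figure D2:**
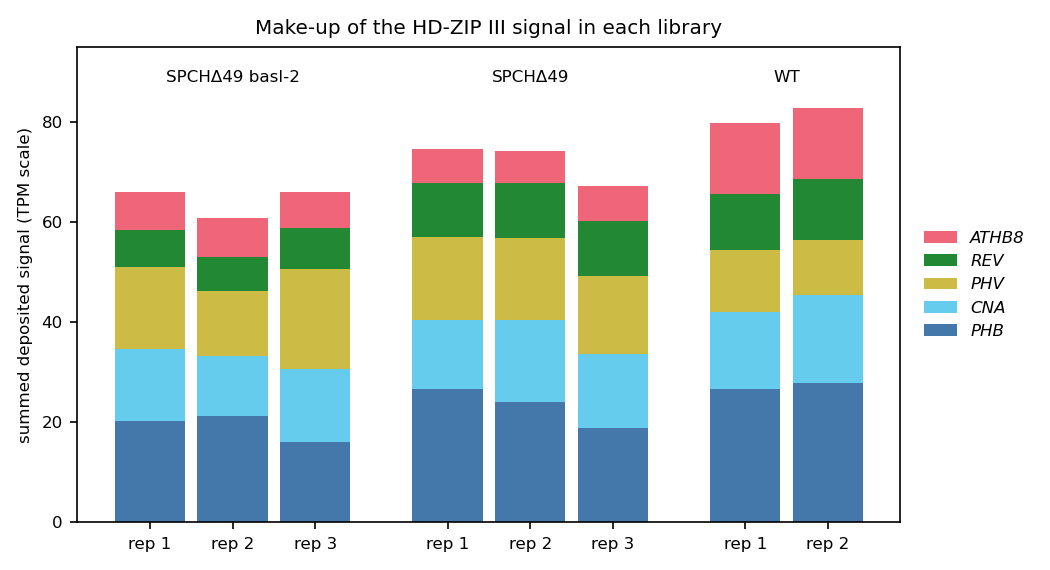
Summed deposited signal (TPM scale) of the 5 HD-ZIP III genes in each library, split by gene from PHB at the bottom to ATHB8 at the top. The stacks reach 60.9 to 66.1 in SPCHΔ49 basl-2, 67.2 to 74.5 in SPCHΔ49 and 79.8 to 82.8 in WT, and the ATHB8 segment is thinner in all overexpressor libraries than in WT.

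PXY, the receptor kinase of the cambium, had signal of 6.48, 5.54 and 6.87 in SPCHΔ49 basl-2, 7.81, 7.49 and 7.37 in SPCHΔ49, and 13.2 and 11.6 in WT. The genotypes did not overlap, and SPCHΔ49 basl-2 was the lowest. PXY fell to 50.7% of WT in SPCHΔ49 basl-2 (log2 fold change −0.88 ± 0.12, limma adjusted p = 0.00217) and to 60.9% of WT in SPCHΔ49 (−0.65 ± 0.12, adjusted p = 0.00850). The call in SPCHΔ49 was lost without WT replicate 1, at an adjusted p of 0.0778, and the call in SPCHΔ49 basl-2 held under all 16 settings. The step between the overexpressors was −0.23 (95% interval −0.49 to 0.02, adjusted p = 0.272).

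WOX4, the homeodomain gene through which PXY promotes cambial division, was the lowest of the 8 genes in every library. Its signal was 1.16, 1.08 and 0.912 in SPCHΔ49 basl-2, 1.16, 1.84 and 1.71 in SPCHΔ49, and 2.92 and 3.55 in WT. All 6 overexpressor libraries were below WT, while SPCHΔ49 basl-2 and SPCHΔ49 met at 1.16. WOX4 fell to 32.5% of WT in SPCHΔ49 basl-2 (log2 fold change −1.04 ± 0.15, limma adjusted p = 0.00280) and to 48.6% of WT in SPCHΔ49 (−0.73 ± 0.15, adjusted p = 0.0138). Without WT replicate 2 the second adjusted p was 0.0926. At such low signal the added pseudocount of 1 makes the log2 values smaller than the percentages, and the number of reads behind them is unknown.

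APL, a MYB-type factor required for phloem identity, had signal of 15.9, 14.3 and 16.3 in SPCHΔ49 basl-2, 9.93, 13.1 and 12.2 in SPCHΔ49, and 18.6 and 14.9 in WT. Here SPCHΔ49 was the lowest genotype, and SPCHΔ49 basl-2 overlapped WT. The log2 difference was −0.10 in SPCHΔ49 basl-2 (95% interval −0.45 to 0.25, limma adjusted p = 0.643) and −0.48 in SPCHΔ49 (−0.83 to −0.13, adjusted p = 0.0516). APL therefore differed from PXY and WOX4 in which overexpressor had the lower mean, and neither step between the overexpressors passed the test.

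**Figure D3:**
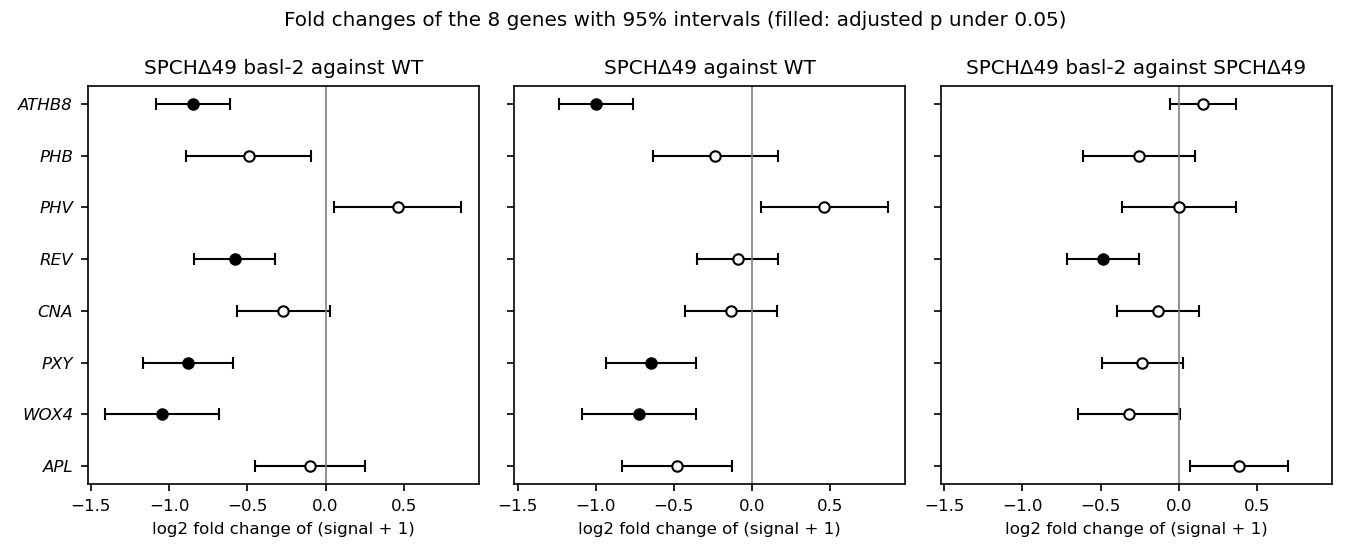
Log2 fold change of (signal + 1) of the 8 genes in the 3 comparisons, with 95% intervals from the limma fit; filled points passed an adjusted p of 0.05. ATHB8, PXY and WOX4 are filled in both comparisons with WT, REV in both comparisons that involve SPCHΔ49 basl-2, and PHV is the 1 gene above 0 against WT.

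In SPCHΔ49 basl-2 against SPCHΔ49, the comparison that adds the basl-2 allele to the overexpressor, 1 of the 8 genes passed, where 5.41% of all genes did, 2.05% higher and 3.36% lower. The gene was REV, at 68.9% of its SPCHΔ49 level (log2 fold change −0.49 ± 0.10, limma adjusted p = 0.0392). Its values were 7.38, 6.90 and 8.27 in SPCHΔ49 basl-2 and 10.9, 11.0 and 10.9 in SPCHΔ49, with no overlap. The log2 fold change lay between −0.57 and −0.39 in all 16 settings, but the call was lost in 9 of them. Those included leaving out any SPCHΔ49 replicate (adjusted p = 0.0831, 0.155 and 0.109 without replicates 1, 2 and 3), SPCHΔ49 basl-2 replicate 1 (0.138) or 2 (0.0933), or either WT library (0.0762 and 0.0768). The median log2 fold change of the 8 genes was −0.18, against −0.03 over all genes. SPCH signal differed between these genotypes as given above.

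Ranked by mean signal, the 8 genes kept PHB at the top and WOX4 at the bottom in every genotype. PHV stood next to last in WT and second in both overexpressors, and ATHB8 stood above PXY and REV in WT but below REV in both overexpressors. In WT the order was PHB (27.2), APL (16.8), CNA (16.6), ATHB8 (14.2), PXY (12.4), REV (11.7), PHV (11.6) and WOX4 (3.23). APL and CNA overlapped there, as did PXY, REV and PHV among themselves, while ATHB8 lay between these sets without touching either. In SPCHΔ49 basl-2 PHB (19.2), PHV (16.5), APL (15.5) and CNA (13.6) overlapped as neighbours, REV (7.52) and ATHB8 (7.48) overlapped well below them, PXY (6.30) lay just under ATHB8 without overlap, and WOX4 (1.05) was last. In SPCHΔ49 PHB (23.2) stood above PHV (16.3), which overlapped CNA (15.003), APL (11.7) overlapped REV (10.9), and PXY (7.55) stood above ATHB8 (6.63) without overlap, with WOX4 (1.57) last.

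Across the 8 libraries PXY and WOX4 had the highest Pearson correlation of any pair among the 8 genes on log2(signal + 1) (r = 0.89, n = 8). ATHB8 correlated with PXY at 0.85, with WOX4 at 0.83 and with PHV at −0.81. These values mostly restate the gap between WT and the overexpressors, since the points are libraries of the same 3 genotypes, and they are given as a description. Among 14198 genes with a mean signal of at least 5, those most alike to ATHB8 over the 8 libraries were PBP2 (AT3G16430, r = 0.996), PAP13 (AT2G42130, 0.994) and AT5G10830 (0.991). For PXY they were AT1G79920 (0.989), the Rubisco small subunit gene RBCS-1B (AT5G38430, 0.988) and KCA1 (AT5G10470, 0.988). For APL they were FLP2 (AT5G10625, 0.954), GRXS6 (AT3G62930, 0.949) and VHA-C2 (AT1G19910, 0.948). PBP2 signal was 4.60 ± 0.200 in SPCHΔ49 basl-2 and 2.39 ± 0.748 in SPCHΔ49, against 63.4 ± 3.21 in WT (SD, n = 3, 3 and 2).

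Among the regulators that act directly on HD-ZIP III genes or proteins 1 call was made, to be read beside the shares of all genes. In SPCHΔ49 basl-2 against WT 12.6% of all genes were called higher and 21.6% lower. Of 7 listed regulators, 1 rose and none fell there. None was called by limma in SPCHΔ49 against WT, where 27.2% of all genes were called, or between the overexpressors, where 5.41% were. In each of these comparisons 2 of the regulators had an unadjusted limma p under 0.05. The gene that rose was ZPR3, a little zipper gene whose protein inactivates HD-ZIP III proteins. Its signal was 5.30, 7.15 and 5.21 in SPCHΔ49 basl-2, 3.44, 4.56 and 4.03 in SPCHΔ49, and 3.40 and 3.16 in WT. The rise in SPCHΔ49 basl-2 was 0.68 ± 0.16 on the log2 scale (limma adjusted p = 0.0189), lost without WT replicate 1 (0.0854) or 2 (0.109). ZPR1, a second little zipper gene, had 10.01, 14.2 and 7.80 in SPCHΔ49 basl-2, 14.1, 17.6 and 11.9 in SPCHΔ49, and 8.09 and 8.62 in WT, with adjusted p of 0.403 in SPCHΔ49 basl-2 and 0.0691 in SPCHΔ49 against WT.
AGO10, an Argonaute that sequesters miR165 and miR166 away from AGO1, had a mean of 17.5 ± 0.898 in SPCHΔ49 basl-2, 18.1 ± 1.08 in SPCHΔ49 and 20.2 ± 1.05 in WT. AGO1, which carries these microRNAs to their targets, had 85.1 ± 7.09, 91.4 ± 6.62 and 82.4 ± 0.136 in the same genotypes. Neither AGO gene, nor the microRNA-processing genes DCL1, HYL1 and SE, passed the test in any comparison. Leaving out SPCHΔ49 basl-2 replicate 2 or 3 gave 1 call in SPCHΔ49 against WT. Over all 16 settings up to 2 of the listed regulators rose in each comparison with WT, and none fell.

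The cambium pathway list held 16 genes beside PXY and WOX4, of which 7 fell and 1 rose in SPCHΔ49 basl-2 and 5 fell and none rose in SPCHΔ49, both against WT. Their median log2 fold change was −0.55 in SPCHΔ49 basl-2 and −0.43 in SPCHΔ49, beside −0.06 and −0.01 over all genes. Of all genes 21.6% were called lower and 12.6% higher in SPCHΔ49 basl-2, and 17.3% and 9.9% in SPCHΔ49. The count of falls in the list was 4 in SPCHΔ49 basl-2 without SPCHΔ49 replicate 2, without SPCHΔ49 basl-2 replicate 1 or 2, or without either WT library. It was 3 in SPCHΔ49 without SPCHΔ49 replicate 2, SPCHΔ49 basl-2 replicate 1 or either WT library.

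Upstream of PXY, the ligand gene CLE41 had signal of 8.38, 6.86 and 9.58 in SPCHΔ49 basl-2, 9.25, 11.4 and 11.6 in SPCHΔ49, and 15.8 and 18.5 in WT. All overexpressor libraries were below WT. CLE41 fell to 48.2% of WT in SPCHΔ49 basl-2 (log2 fold change −0.98 ± 0.17, limma adjusted p = 0.00484, held in all 16 settings). In SPCHΔ49 it was at 62.7% of WT (adjusted p = 0.0293), a call lost in 6 settings, among them the fits without either WT library (0.0882 and 0.183), without SPCHΔ49 replicate 1 (0.0765) or 2 (0.0657), or without SPCHΔ49 basl-2 replicate 1 (0.0529). The related ligand gene CLE44 was low and scattered, with 0.559, 0.433 and 1.57 in SPCHΔ49 basl-2, 0.164, 0.981 and 1.89 in SPCHΔ49, and 2.32 and 1.84 in WT. It did not pass the test (adjusted p = 0.171 and 0.230 against WT), nor did CLE42 (0.910 and 0.283).
Of the PXY-like receptor genes, PXL1 was at 67.7% of WT in SPCHΔ49 basl-2 (adjusted p = 0.0389), a call lost in 11 of 16 settings. Adjusted p reached 0.423 there after quantile normalization, and the losses included the fits without SPCHΔ49 replicate 2, any SPCHΔ49 basl-2 replicate or either WT library (up to 0.160). PXL2 rose there to 146% of WT (adjusted p = 0.0302), lost without SPCHΔ49 replicate 2, SPCHΔ49 basl-2 replicate 1 or 2, or either WT library, up to 0.179.

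Beside and downstream of PXY, 3 genes fell in both overexpressors under all 16 settings. WOX14, a relative of WOX4, had 0.103, 0.195 and 0.212 in SPCHΔ49 basl-2, 0, 0.110 and 0.354 in SPCHΔ49, and 1.74 and 3.32 in WT (limma adjusted p = 0.00205 in SPCHΔ49 basl-2 and 0.00196 in SPCHΔ49). Since WOX14 reached 1 in WT only, it is listed through the 2 WT libraries alone, and its fall is partly fixed by that listing. LBD4, a LOB-domain factor at the border of procambium and phloem, had 1.09, 1.40 and 1.66 in SPCHΔ49 basl-2, 1.46, 1.17 and 2.17 in SPCHΔ49, and 6.75 and 6.53 in WT, which is 20.9% and 24.1% of WT (adjusted p = 0.000742 and 0.00104). RUL1, a receptor kinase that promotes cambium activity, had 3.23, 4.08 and 3.51 in SPCHΔ49 basl-2, 3.14, 3.59 and 3.75 in SPCHΔ49, and 9.43 and 10.4 in WT, or 36.3% and 35.1% of WT (adjusted p = 0.000597 and 0.000515). In each of these 3 genes the overexpressors lay close to each other and far from WT. MOL1, a receptor kinase that restrains cambium activity, was at 80.0% of WT in SPCHΔ49 basl-2 (adjusted p = 0.228) and at 85.2% in SPCHΔ49 (0.403). ANT and LBD3 passed in SPCHΔ49 basl-2 against WT alone, at adjusted p of 0.0382 and 0.0327. ANT lost the call in 10 of 16 settings (up to 0.220) and LBD3 in 8 (up to 0.182), each of them without SPCHΔ49 replicate 2, SPCHΔ49 basl-2 replicate 1 or 2, or either WT library, and ANT also without SPCHΔ49 basl-2 replicate 3.

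BES1 is a brassinosteroid factor that the kinase BIN2 restrains under PXY and that promotes xylem differentiation. It was the 1 gene of this list called between the overexpressors, where 5.41% of all genes were called. Its signal was 84.0, 95.9 and 79.0 in SPCHΔ49 basl-2, 61.6, 52.8 and 51.7 in SPCHΔ49, and 74.2 and 77.1 in WT. The SPCHΔ49 libraries were below both other genotypes. BES1 was at 73.2% of WT in SPCHΔ49 (limma adjusted p = 0.0287), 1 of the 5 falls of the list there, a call lost in 6 of 16 settings. The rise in SPCHΔ49 basl-2 over SPCHΔ49 was 0.63 ± 0.10 (limma adjusted p = 0.0205), and adjusted p ran from 0.0513 to 0.110 in 7 settings, including those without either WT library, SPCHΔ49 replicate 2 or 3, or SPCHΔ49 basl-2 replicate 1 or 2. BIN2 itself was at 122% of WT in SPCHΔ49 basl-2 and 100.1% in SPCHΔ49, with adjusted p of 0.306 and 0.947. LBD1, LBD11 and HAM4 did not pass in any comparison, and LBD1 reached 19.5 in SPCHΔ49 replicate 3 against 0.225 to 5.42 in the other 7 libraries.

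**Figure D4:**
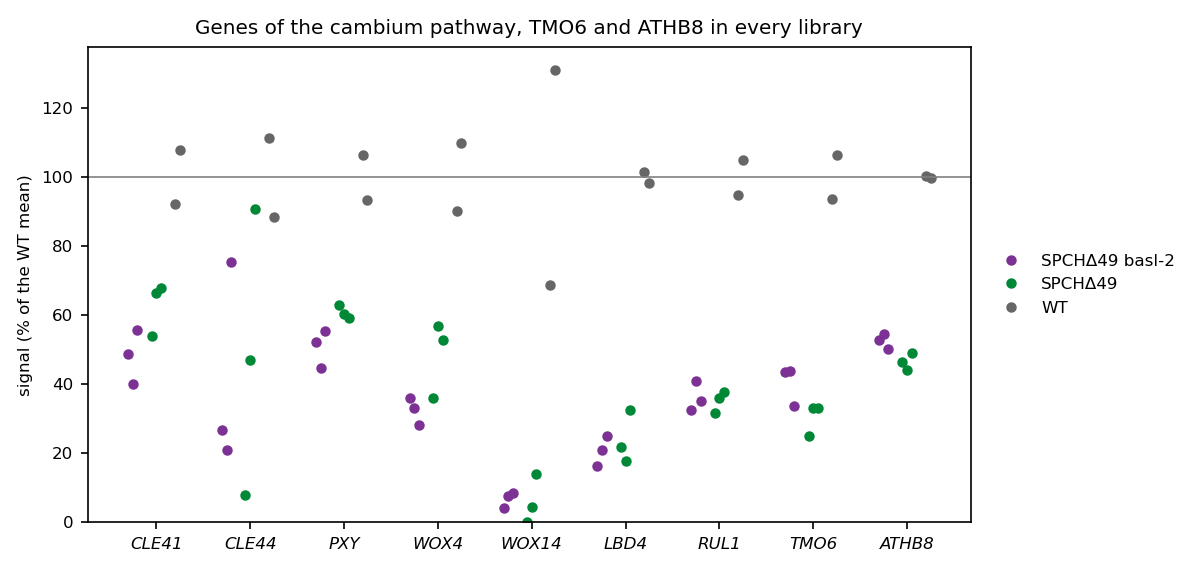
Signal of CLE41, CLE44, PXY, WOX4, WOX14, LBD4, RUL1, TMO6 and ATHB8 in every library as a percentage of that gene's WT mean (vertical axis from 0; the line is 100%). Apart from CLE44, whose libraries scatter up to the WT values, every overexpressor library lies below both WT libraries, lowest for WOX14.

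Genes that act in starting the procambium, where ATHB8 is switched on, had mostly lower signal as well. Of 8 listed genes 5 fell in SPCHΔ49 basl-2 and 7 in SPCHΔ49 against WT, where 21.6% and 17.3% of all genes were called lower. None of the 8 rose, and their medians were −0.66 and −0.81. Falls in SPCHΔ49 numbered 4 without WT replicate 1 or without SPCHΔ49 replicate 2, and 3 without WT replicate 2. TMO6, a DOF factor of early vascular cells, had 6.76, 6.79 and 5.22 in SPCHΔ49 basl-2, 3.88, 5.14 and 5.15 in SPCHΔ49, and 14.5 and 16.5 in WT (limma adjusted p = 0.00209 and 0.000663). MP, the auxin response factor that activates ATHB8 in leaf veins, was looked at after its values were seen. It had 6.50, 6.83 and 6.16 in SPCHΔ49 basl-2, 6.01, 5.68 and 6.71 in SPCHΔ49, and 10.7 and 13.0 in WT, or 54.9% and 51.8% of WT (adjusted p = 0.00427 and 0.00328). TMO6 and MP kept their calls against WT in all 16 settings.

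Against WT 21.6% of all genes were called lower in SPCHΔ49 basl-2 and 17.3% in SPCHΔ49. Among 11 listed phloem genes beside APL, 5 fell in SPCHΔ49 basl-2 and 6 in SPCHΔ49, and none rose. Without WT replicate 2 these phloem counts were 3 and 2. BAM3, a receptor kinase of protophloem, had 4.58, 4.83 and 5.996 in SPCHΔ49 basl-2, 4.73, 4.99 and 5.41 in SPCHΔ49, and 12.7 and 13.4 in WT (limma adjusted p = 0.000773 and 0.000717). OPS, a protophloem polarity gene, had 5.12, 4.85 and 5.35 in SPCHΔ49 basl-2, 5.93, 5.65 and 7.63 in SPCHΔ49, and 10.7 and 12.5 in WT (adjusted p = 0.00224 and 0.00850), with 0.0757 in SPCHΔ49 without WT replicate 2. APL was not called beside them. The phloem list's median log2 fold change was −0.59 in SPCHΔ49 basl-2 and −0.61 in SPCHΔ49.

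Of 10 listed xylem genes 8 fell in SPCHΔ49 basl-2 and 9 in SPCHΔ49 against WT, beside 21.6% and 17.3% of all genes called lower. The medians of the xylem list were −0.74 and −1.05. Without WT replicate 1 there were 4 and 4 falls, and without WT replicate 2 there were 1 and 4. The xylem protease gene XCP2 had 29.0, 20.6 and 30.5 in SPCHΔ49 basl-2, 17.7, 20.7 and 24.0 in SPCHΔ49, and 54.9 and 56.3 in WT (limma adjusted p = 0.00615 and 0.00212). Its call in SPCHΔ49 held in all 16 settings, and that in SPCHΔ49 basl-2 was lost without WT replicate 2 (0.0502). No phloem, xylem or procambium initiation gene was called between the overexpressors, where 5.41% of all genes were called, so few calls would stand out. There limma gave an unadjusted p under 0.05 for 1, 4 and 1 genes of these lists, and any other setting gave at most 1 call per list.

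**Figure D5:**
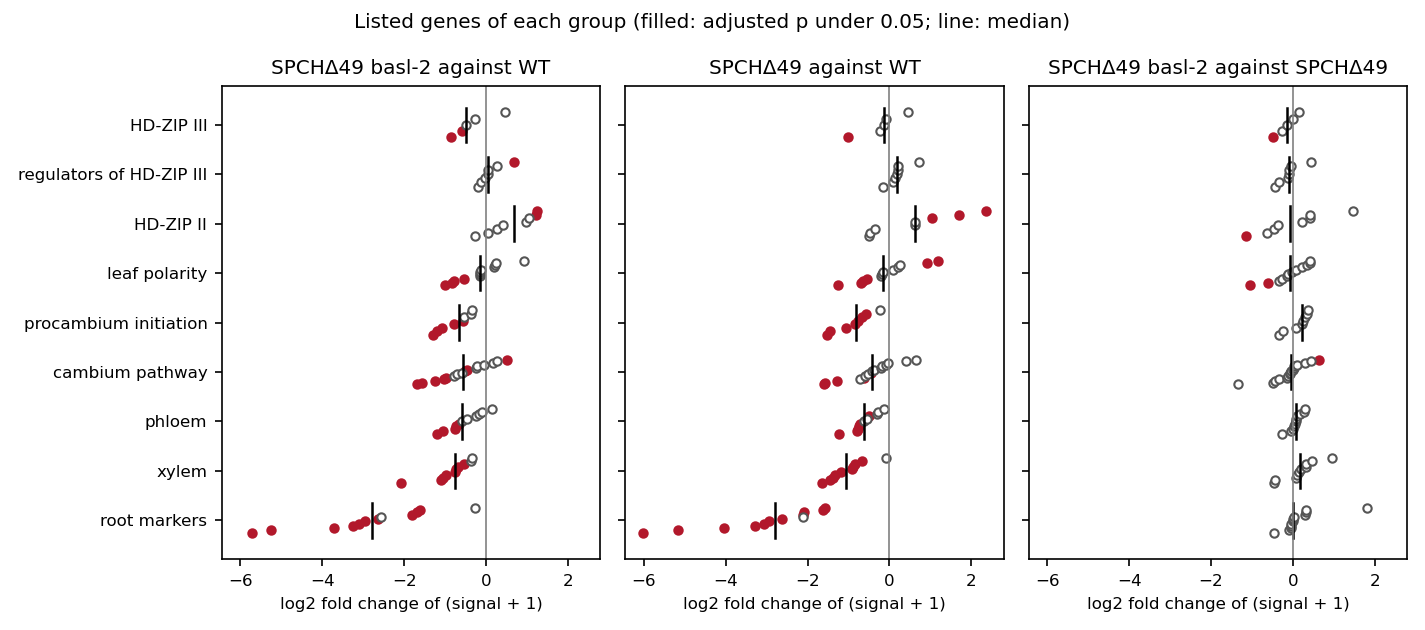
Log2 fold change of (signal + 1) of every listed gene, by list, in the 3 comparisons; filled points passed an adjusted p of 0.05 and black lines are list medians. Filled points of the procambium, cambium, phloem, xylem and root lists lie below 0 against WT except PXL2 in SPCHΔ49 basl-2, while filled HD-ZIP II points lie above 0 there.

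Other genes of leaf polarity and the shoot meristem, in which PHB, PHV, REV and CNA act, moved in both directions. HD-ZIP II genes, several of which HD-ZIP III factors activate, had 2 rises of 8 in SPCHΔ49 basl-2 and 3 of 8 in SPCHΔ49 against WT. Of all genes 12.6% and 9.9% were called higher there. The 5 HD-ZIP II genes without a call in SPCHΔ49 are given as well, and they went both ways. HAT3, ATHB4 and HAT1 were at 77.0%, 64.2% and 80.3% of WT there, and HAT2 and HAT14 at 162% and 168%. Without either WT library SPCHΔ49 basl-2 had 1 rise, and without WT replicate 1 there was 1 fall in SPCHΔ49. HAT9 had 23.4, 21.9 and 17.95 in SPCHΔ49 basl-2, 52.3, 53.6 and 39.1 in SPCHΔ49, and 9.53 and 7.46 in WT (limma adjusted p = 0.00309 and 0.000150). ATHB2, an HD-ZIP II gene of shade responses, had 18.6, 19.6 and 35.3 in SPCHΔ49 basl-2, 29.4, 30.4 and 39.2 in SPCHΔ49, and 7.80 and 11.0 in WT (adjusted p = 0.0162 and 0.00555). Without WT replicate 1 ATHB2 had 0.122 and 0.0583, and without WT replicate 2 it had 0.0507 in SPCHΔ49 basl-2. HAT9 was also lower in SPCHΔ49 basl-2 than in SPCHΔ49 (adjusted p = 0.0127), a call lost without SPCHΔ49 replicate 2 (0.0730).

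Against WT 12.6% of all genes were called higher and 21.6% lower in SPCHΔ49 basl-2, and 9.9% and 17.3% in SPCHΔ49. Of 12 leaf polarity genes, none rose and 4 fell in SPCHΔ49 basl-2, and 2 rose and 4 fell in SPCHΔ49. Without either WT library 1 fell in each comparison; in SPCHΔ49, 2 fell without the first replicate of either overexpressor, and 1 fell without SPCHΔ49 replicate 2. The rises in SPCHΔ49 were 1 without either WT library or with SPCHΔ49 replicate 1 or 2 left out, and SPCHΔ49 basl-2 had 1 rise without SPCHΔ49 replicate 1 or 3 or SPCHΔ49 basl-2 replicate 3. KAN4 and AS1 had the lowest adjusted p of the falls in both comparisons. Mean KAN4 signal was 0.386 in SPCHΔ49 basl-2, 0.178 in SPCHΔ49 and 1.79 in WT (limma adjusted p = 0.00197 and 0.000762, lost after quantile normalization). KAN4 reached 1 in WT only, so it is listed through WT alone. AS1 had 44.0, 47.7 and 75.2 in the same order (adjusted p = 0.00917 and 0.0206, lost without either WT library). Besides AS2, YAB3 rose in SPCHΔ49, with 104 against 43.7 in WT (adjusted p = 0.0258, lost in 4 settings). AS2, which acts with HD-ZIP III genes on the upper leaf side, had 3.32, 2.34 and 3.02 in SPCHΔ49 basl-2, 7.37, 7.45 and 6.21 in SPCHΔ49, and 3.23 and 3.28 in WT. It rose in SPCHΔ49 over WT (limma adjusted p = 0.00449, held in all 16 settings). It was lower in SPCHΔ49 basl-2 than in SPCHΔ49 (adjusted p = 0.00863), lost without SPCHΔ49 replicate 2 (0.0596). ARF4, an auxin response factor of the lower leaf side, had 8.50, 9.72 and 11.9 in SPCHΔ49 basl-2, 14.95, 15.7 and 16.5 in SPCHΔ49, and 15.2 and 14.3 in WT. It was lower in SPCHΔ49 basl-2 than in SPCHΔ49 (adjusted p = 0.0421), lost without any SPCHΔ49 replicate, SPCHΔ49 basl-2 replicate 1 or 2, or either WT library, up to 0.156. Like REV, it was lowest in SPCHΔ49 basl-2, where it was also called lower than WT (limma adjusted p = 0.0271), a call lost in 6 of 16 settings.

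Of 3 listed shoot meristem genes, 1 rose and 1 fell in each comparison with WT, to be read beside the shares of all genes given above. CLV1, the receptor kinase that limits the stem cell pool, had 34.1, 32.7 and 26.5 in SPCHΔ49 basl-2, 46.6, 39.4 and 33.1 in SPCHΔ49, and 14.8 and 14.2 in WT (limma adjusted p = 0.00365 and 0.00112). KNAT1 had 2.17, 2.83 and 2.16 in SPCHΔ49 basl-2, 2.82, 3.58 and 3.86 in SPCHΔ49, and 8.23 and 8.83 in WT (adjusted p = 0.000546 and 0.00212). Without SPCHΔ49 replicate 1, a second gene rose in each comparison. CLV1 and KNAT1 kept their calls in all 16 settings.

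Marker lists of other tissues moved in the same libraries, and their counts stand beside the shares of all genes given above. Of 12 root markers 10 fell in SPCHΔ49 basl-2 and 11 in SPCHΔ49 against WT, and their median level was 0.524% and 0.878% of WT. Those below 1 in every overexpressor library are listed through WT alone. Of 10 epidermis and stomatal lineage markers, 4 rose in SPCHΔ49 basl-2 and 7 in SPCHΔ49. SPCH, the overexpressed gene itself, is among them in both, so its rise says nothing about the tissue. The 10 markers summed to 841 to 932.2 and 3455 to 4026, against 455 to 463 in WT. SPCH alone gave 338 to 487 in SPCHΔ49 basl-2, 2357 to 2628 in SPCHΔ49 and 5.65 to 8.20 in WT. Between the overexpressors 5 of these 10 were lower in SPCHΔ49 basl-2, and 3 without SPCHΔ49 replicate 2. Of 8 mesophyll markers 5 fell in each overexpressor, or 3 without WT replicate 1 in each and 3 without WT replicate 2 in SPCHΔ49 basl-2. The 5 were RBCS1A, RBCS1B, SBPASE, GAPB and RCA in both, while CAB1, CAB3 and LHB1B1 were not called. The sums of the 8 were 58179 to 84303 in SPCHΔ49 basl-2, 47788 to 69107 in SPCHΔ49 and 68496 to 72147 in WT. CAB1 alone gave 27386 to 47344 in SPCHΔ49 basl-2, 24173 to 37726.5 in SPCHΔ49 and 25042 to 27545 in WT. The part of these markers in the results on the 8 genes was not tested.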

How the data were processed

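RNA libraries of 8 whole-seedling samples were made by the authors with the TruSeq kit, per the labels' protocols. Per the submitters' processing notes, Trimmomatic 0.38, kallisto 0.44.0 and sleuth were used. Build and annotation: not given in the sources used here. Deposited signal per gene is headed TPM per the file headers, but its totals differ between samples more than TPM allows, so it was treated as signal rescaled by an unstated step; depth is unknown, and no counting interval is given.

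Signal was taken as log2(signal + 1) and fitted with limma 3.58.1 in R 4.3.3, with 1 mean per genotype over all 8 samples, an intensity trend, two-sided tests and Benjamini-Hochberg adjustment over 18855 genes, called at 0.05. The method was tested on simulated data. Intervals are 95%. Pathway and marker lists (13, with 133 genes, 113 of them listed) and the 8 genes were chosen with earlier results of these data known. Named genes are the 8, the regulator and cambium lists, up to 2 rises and 2 falls of lowest adjusted p per other list and comparison, and the 3 genes most alike to ATHB8, PXY and APL; exceptions are stated. Both comparisons with WT share its 2 libraries. Sequences and coordinates come from RefSeq TAIR10.1. Another pseudocount (0.1), a low-value filter, other normalizations, designs and left-out samples were tried.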

Additional observations from a re-analysis of the deposited data

How the results depend on the processing

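The 8 genes in 3 comparisons gave 384 values over 16 settings, 1 of which, rescaling each library without SPCH, organelle and abundant genes, was chosen after seeing the data. Of these values 362 kept their side of the threshold, 13 lost the call and 9 gained it. No called value changed sign, while 7 values without a call did: PHV between the overexpressors in 5 settings (all 16 from −0.15 to 0.15), REV in SPCHΔ49 against WT in 1 (up to 0.04) and APL in SPCHΔ49 basl-2 against WT in 1 (up to 0.05). A filter of at least 1 in at least 2 samples removed 0 genes, so that setting repeats the reported fit.

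Called genes between the overexpressors numbered 485 when only these 2 genotypes were fitted, against 1020 as reported. Members called there were 0 in that fit and 0 after quantile normalization (REV, adjusted p = 0.0769 and 0.0597). WOX4 in SPCHΔ49 against WT missed the threshold after quantile normalization (adjusted p = 0.0805). Calls were gained for PHV after quantile normalization in SPCHΔ49 basl-2 against WT (0.0430), for APL after it in SPCHΔ49 against WT (0.0348), and for PHV in SPCHΔ49 against WT after the added rescaling (0.0447) or with 2 genotypes fitted (0.0305). Leaving out 1 sample, all genes called ranged from 2906 to 7052 in SPCHΔ49 basl-2 against WT, from 2247 to 5636 in SPCHΔ49 against WT and from 151 to 1242 between the overexpressors, where members called ranged from 0 to 1. The causes were not tested.

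Higher calls made up 36.9%, 36.5% and 37.9% of all calls in SPCHΔ49 basl-2 against WT, SPCHΔ49 against WT and between the overexpressors. For these comparisons the shares were 49.0%, 50.7% and 35.8% after quantile normalization and 43.5%, 55.9% and 23.4% after the added rescaling. That rescaling moved the median log2 fold change of all genes to 0.12 in SPCHΔ49 against WT and −0.10 between the overexpressors.

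Replicate numbers are shared between genotypes, but of the same-numbered samples of different genotypes only replicates 3 of the overexpressors deviated clearly together (0.76), the other correlations of deviations running from −0.17 to 0.17, so the numbers were not taken as pairs. With a replicate block, 8045, 6446 and 1494 genes and 5, 3 and 1 of the 8 genes were called in the same order of comparisons, PHB being the fifth (adjusted p = 0.0313).

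Depth is unknown, so the precision of low signals such as WOX4 and WOX14 cannot be given, and 2 WT libraries limit every comparison with WT.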

Other observations

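Samples of different genotypes shared deviations from their genotype means over 18855 genes, which are not independent replicates. These deviations correlated at 0.77 between SPCHΔ49 replicate 1 and SPCHΔ49 basl-2 replicate 2, and at 0.76 between replicate 3 of each overexpressor. PHB was at its highest within each genotype in the first of these pairs, 21.2 in SPCHΔ49 basl-2 and 26.6 in SPCHΔ49, and at its lowest in the other, 16.1 in SPCHΔ49 basl-2 and 18.9 in SPCHΔ49.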
